A study of Mus musculus with 25 samples.

Results

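The first 3 days after birth were examined in the mouse liver by comparing 2 arrays of 3-day-old livers (Day3) with 2 arrays of livers from the day of birth (Day0), 4 of the 25 arrays in a series that follows liver development. Probe sets with a single gene symbol were kept and the brightest set stood for each gene, which gave 18194 genes, all of them tested. The mice were C57/B6, and the labels name no treatment or engineered allele. Both ages are whole liver, 3 livers were pooled at each age, and the 2 arrays of an age are technical repeats of that pool. The errors and p-values below therefore describe the spread of repeat arrays and not of animals. The level before birth was the mean of the stages at embryonic day 17.5 (E17.5, 2 arrays of 1 pool of 3 livers) and 18.5 (E18.5, 1 array of 1 such pool).

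At birth the supply of glucose and amino acids through the placenta ends, and the newborn lives on its own glycogen, on glucose made in the liver and then on milk, which is rich in fat. Glucagon and glucocorticoids rise around birth and switch on genes of gluconeogenesis and amino acid breakdown through cAMP signalling and the glucocorticoid receptor, whereas insulin and feeding favour the synthesis of fat and cholesterol. The liver is also still losing its role as a site of blood formation at this age, and takes up the handling of foreign compounds, bile acids and growth hormone signals.

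Intensities were compared as log2 values, so a difference of 1 is a 2-fold change. A gene was called when its adjusted p was under 0.05 in a linear model over all arrays (limma, Benjamini-Hochberg over all genes) and its change was at least 1 log2 unit. At Day3, 330 genes were higher than at Day0, 1.81% of those tested, and 200 were lower, 1.10%, together 530 genes or 2.91%. The median change over all genes was -0.0073. The arrays of the 2 ages did not overlap in 5973 of the 18194 genes, and in all 330 higher and all 200 lower genes. For a called gene, arrays that do not overlap are therefore no added support. An unadjusted p under 0.05 in limma was reached by 3261 of the 18194 genes, in either direction. Just inside the threshold stood Grcc10 at 1.002 and Adssl1 at -1.01, and just outside Gas2l3 at 0.9999 and Tango2 at -0.9961. Of the called genes 62.3% were higher at Day3, and 74.9% when the arrays were set to an equal mean of 16 housekeeping genes, which moved the median of all genes to 0.16. The share was 46.1% without the second Day0 array and 45.2% without the first Day3 array, so the majority turned when either was left out. Leaving out 1 array also leaves the 2 ages with unequal mean brightness, described below, and the part of this was not tested. With all arrays kept, the share was 62.7% with quantile normalisation and 62.3% with a block for the replicate number.

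The repeat arrays of an age correlated at 0.989 at Day3 and 0.991 at Day0 across genes, but the first array was the brighter at both ages, with a mean intensity of 194 against 155 at Day3 and 199 against 155 at Day0. The hepatocyte marker Alb, which encodes albumin, had 14.32 and 13.79 on the Day3 arrays, against 14.32 and 13.77 on the Day0 arrays. The 29 skeletal muscle genes summed to 1505 and 1671 on the Day3 arrays, against 1504 and 1621 on the Day0 arrays , and 0 of them were called or had an unadjusted p under 0.05 in limma. The same sum was 2294 at E17.5 and 3446 at E18.5, and its part in the classes below was not tested. A whole-liver array cannot tell fewer cells of a type from less RNA in each cell.

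The called genes were then separated by what they had done between E17.5 to E18.5 and Day0, a step in which 2.26% of all genes were called higher and 1.14% lower at Day0. A peak was higher at Day0 than before birth and lower again at Day3, a trough the reverse, and a continued change went the same way in both steps. There were 141 peaks, 104 troughs, 8 continued rises and 4 continued falls, and the remaining 273 genes were called only after Day0, 218 of them up and 55 down. The last class can hold smaller earlier moves: 109 of its genes had an adjusted p under 0.05 in the step into Day0 with a change of less than 1 log2 unit, 93 of them in the opposite direction to the later step. Since both steps use the Day0 arrays, an error on those arrays would itself look like a peak or trough, and these counts are descriptions. With E17.5 alone as the level before birth, 132 of the 141 peaks and 73 of the 104 troughs kept their class. The other troughs therefore lean on the 1 E18.5 array. With E18.5 alone, 122 of the 141 peaks and 100 of the 104 troughs kept their class, and 132 troughs were found. The mean of both stages can thus leave out a drop from E18.5 to Day0. When 1 Day0 array served for the step into birth and the other for the step out of it, 108 or 151 peaks and 93 or 108 troughs were found, depending on which array served for which, and 21 or 3 continued rises.

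**Figure D1:**
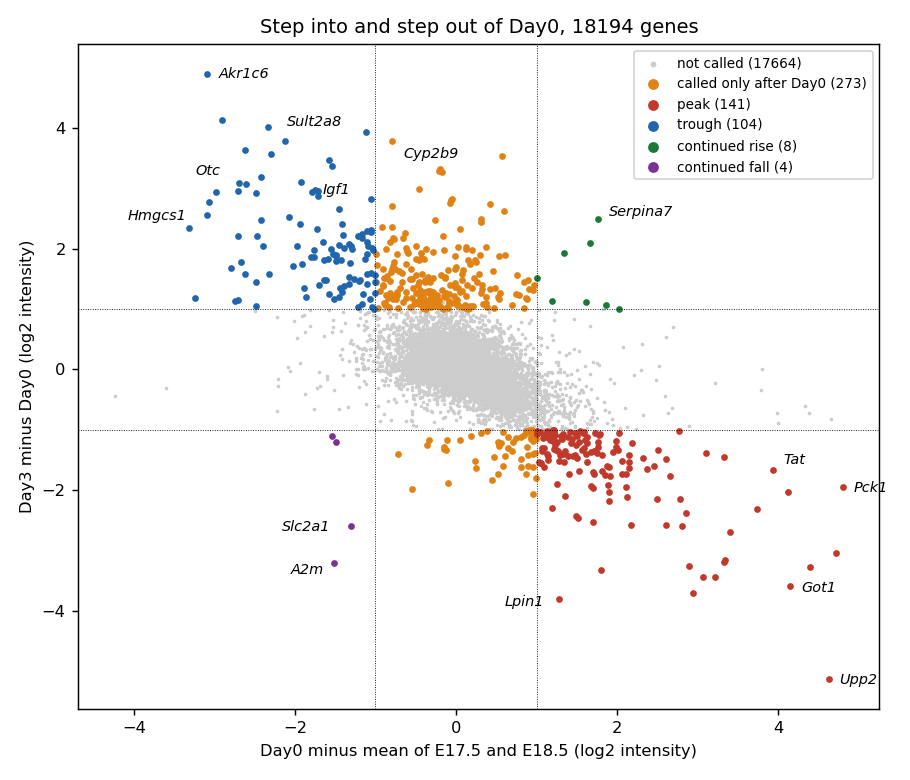
Each point is 1 of the 18194 genes, with the change into Day0 across and the change from Day0 to Day3 upwards, both in log2 intensity, and colours mark the classes with their gene counts. Peaks lie at the lower right and troughs at the upper left, while the corners of continued change hold 8 and 4 genes. Both axes use the Day0 arrays, which by itself tilts the cloud.

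Most peaks and troughs had ended by Day3, judged against the level before birth. Of the 141 peaks 127 stood at Day3 within 1 log2 unit of their level before birth, 11 were still at least 1 unit above it and 3 lay at least 1 unit below. Of the 104 troughs 75 were back within 1 unit, 22 had overshot and 7 stayed below. Across all genes, 2.07% were called higher and 0.621% lower at Day3 than before birth. The median peak gene stood at 7.28 at E17.5, 7.19 at E18.5, 9.12 at Day0, 7.40 at Day3 and 7.54 at Day7, and the median trough gene at 8.63, 9.29, 7.11, 9.14 and 10.3 over the same stages.

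**Figure D2:**
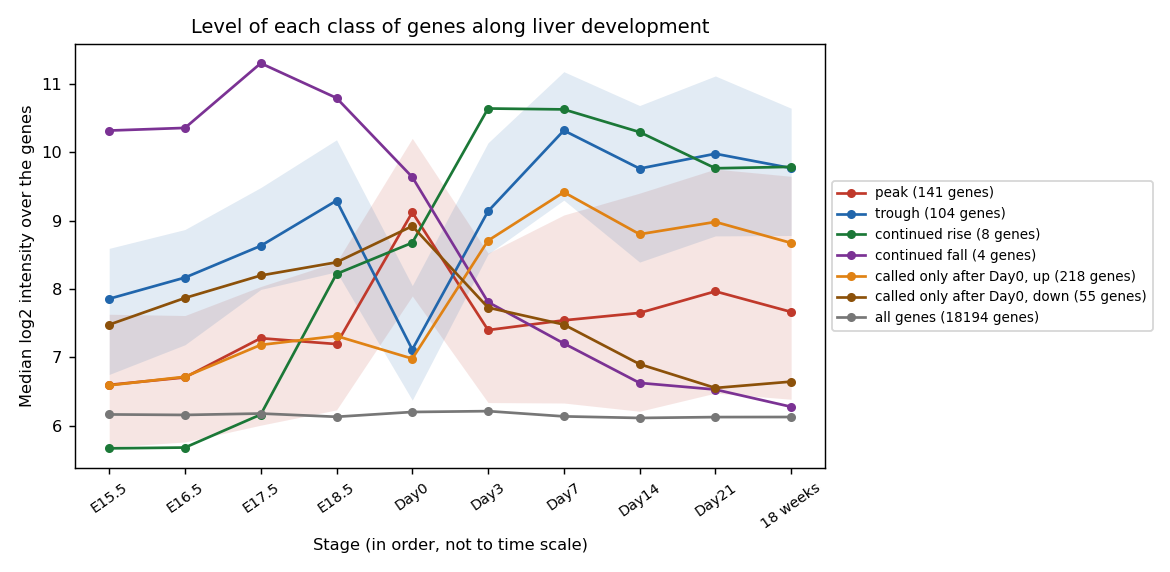
Lines show the median log2 intensity of each class of genes from E15.5 to 18 weeks in stage order, and the bands run between the quartiles of the peak and trough genes. The red line of the peaks stands at 9.12 at Day0 against 7.19 and 7.40 at its neighbours, and the blue line of the troughs at 7.11 against 9.29 and 9.14. The gray line over all genes stays level.

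Of the 15 genes that fell furthest after the day of birth 14 were peaks. Upp2, a uridine phosphorylase of pyrimidine salvage, had 6.06 and 5.598 on the Day3 arrays, against 11.35 and 10.57 on the Day0 arrays, a change of -5.13 ± 0.24 (SE, n = 2 arrays each) or 35-fold lower (adjusted p 1.50e-09). Its level was 5.83 at E17.5 and 6.83 at E18.5, so the Day3 mean of 5.83 was near the E17.5 level and about 1 log2 unit below that of E18.5. Got1, the cytosolic aspartate aminotransferase that feeds carbon from amino acids into glucose, had 9.46 and 8.90 on the Day3 arrays, against 13.05 and 12.51 on the Day0 arrays, a change of -3.60 ± 0.23. Pdk4, the kinase that blocks entry of pyruvate into the citric acid cycle, had 6.98 and 7.05 on the Day3 arrays, against 10.47 and 10.12 on the Day0 arrays. The arrays of the 2 ages were far apart for all of these genes, and each had been at or below 8.63 before birth. Lpin1, a phosphatidate phosphatase that also acts as a partner of PGC-1alpha, had 7.30 and 6.88 on the Day3 arrays, against 11.19 and 10.62 on the Day0 arrays. It ended more than 1 log2 unit below its level before birth, with a difference of -2.54 ± 0.21 (limma, adjusted p 7.67e-07). Lpin1 had been at 8.72 at E17.5 and 10.53 at E18.5, against a Day0 mean of 10.90, so it was already high at E18.5.

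Other large peaks belonged to varied processes. Ddit4, an inhibitor of the growth kinase complex mTORC1, changed by -3.32 ± 0.21. Retreg1, a receptor for the autophagy of endoplasmic reticulum, changed by -3.19 ± 0.29. Setdb2, a histone methyltransferase, changed by -3.17 ± 0.16 and Wnt4, a secreted Wnt ligand, by -3.44 ± 0.15. Rab30, a small GTPase of the Golgi, changed by -3.05 ± 0.15, and Slco4c1, a transporter of organic anions, by -3.71 ± 0.15. At Day3 Retreg1, Setdb2, Wnt4 and Slco4c1 were within 1 log2 unit of their level before birth, while the difference from it was -1.52 ± 0.20 for Ddit4 and 1.66 ± 0.14 for Rab30.

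Among 42 genes of the response to glucocorticoids and cAMP, 11 were lower at Day3, all 11 of them peaks, and 2 were higher, with a median change of -0.36. Pck1, the rate-limiting enzyme of gluconeogenesis, had 9.12 and 8.66 on the Day3 arrays, against 11.12 and 10.55 on the Day0 arrays, a change of -1.95 ± 0.16 (adjusted p 6.02e-07). Pck1 had been at 5.02 at E17.5 and 7.04 at E18.5, so that Day3 kept much of the increase at birth and was above the level before birth by 2.86 ± 0.15. Ppargc1a, which encodes the coactivator PGC-1alpha that switches on gluconeogenesis, had 5.14 and 5.39 on the Day3 arrays, against 7.75 and 7.95 on the Day0 arrays and was back at its level before birth, 5.24. Tat, tyrosine aminotransferase and a classic glucocorticoid target, had 10.40 and 9.82 on the Day3 arrays, against 12.07 and 11.49 on the Day0 arrays. Sgk1, a glucocorticoid-induced kinase, changed by -2.03 ± 0.27 and Cebpd, a transcription factor of the acute response, by -2.53 ± 0.21. On these arrays Ppargc1a was therefore back at its level before birth, while Pck1 and Tat fell in part. Both of these levels of Ppargc1a were under 6, near the lower end of the scale, so how far it fell is uncertain. The 2 members that were higher at Day3 were Hsd11b1, the enzyme that regenerates active glucocorticoid, at 1.52 ± 0.23 and the clock repressor Bhlhe40 at 1.02 ± 0.12, which was at 0.96 and not called without the second Day0 array. Hsd11b1 was chosen after its values were seen.

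The promoters of Pck1 and Ppargc1a are printed because both genes are textbook targets of the cAMP-activated factor CREB, from 250 bases before to 50 bases after the annotated start (RefSeq, GRCm38.p6). Capitals mark matches to TGACG, the core of the cAMP response element, on either strand. The Pck1 window is chr2:173152823-173153122 on the plus strand, and its single match begins 90 bases before the start. The Ppargc1a window is chr5:51567676-51567975 on the minus strand, with a single match that begins 49 bases before the start.
Pck1: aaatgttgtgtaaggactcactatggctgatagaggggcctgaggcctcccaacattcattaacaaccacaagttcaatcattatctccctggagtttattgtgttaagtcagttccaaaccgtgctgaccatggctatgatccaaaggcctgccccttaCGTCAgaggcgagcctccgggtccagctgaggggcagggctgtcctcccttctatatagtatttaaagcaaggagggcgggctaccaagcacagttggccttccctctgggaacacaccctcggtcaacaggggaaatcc
Ppargc1a: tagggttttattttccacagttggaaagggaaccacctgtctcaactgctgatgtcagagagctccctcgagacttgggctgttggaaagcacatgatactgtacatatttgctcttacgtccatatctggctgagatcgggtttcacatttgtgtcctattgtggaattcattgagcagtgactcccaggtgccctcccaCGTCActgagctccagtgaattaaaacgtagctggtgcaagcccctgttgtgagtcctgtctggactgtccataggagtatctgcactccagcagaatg
Such a match is common: TGACG stood in 4336 of the 14453 measured genes with a promoter in the table, in 35 of the 105 peak genes with one (33.3%) and in 11 of 79 trough genes (13.9%). The whole palindrome TGACGTCA, which contains TGACG, was in 2.92% of all promoters, in 1 of the 105 and in 0 of the 79. A match is only a run of letters and says nothing about binding.

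Glucose release itself did not move as 1 block. Of 16 genes of the pathway 4 were lower and 1 was higher at Day3, with a median change of -0.12. G6pc, the catalytic subunit of glucose-6-phosphatase, had 11.51 and 10.99 on the Day3 arrays, against 12.20 and 11.53 on the Day0 arrays, a change of -0.61 ± 0.25 that was not called. Slc37a4, the transporter that brings glucose-6-phosphate to that enzyme, was lower, at -1.40 ± 0.20, though not past the threshold when only the arrays of 5 neighbouring stages were fitted. Gpd1, the glycerol-3-phosphate dehydrogenase through which glycerol carbon can reach glucose, was higher at 2.11 ± 0.18, and at 0.95 over all its probe sets.

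Of 15 glycogen genes 3 were higher and 1 was lower at Day3, with a median change of 0.29. Ppp1r3g, which targets protein phosphatase 1 to glycogen, was a peak with 4.89 and 4.79 on the Day3 arrays, against 8.30 and 7.90 on the Day0 arrays, a change of -3.26 ± 0.12. Ppp1r3c, a targeting subunit of the same phosphatase, was a trough with 8.21 and 8.22 on the Day3 arrays, against 5.41 and 5.48 on the Day0 arrays, a change of 2.77 ± 0.14. Their arrays therefore lay in opposite order at the 2 ages. Gckr, the regulatory protein that holds glucokinase in the nucleus, was a trough as well and rose by 1.97 ± 0.21. Its level was 8.02 at E17.5 and 8.62 at E18.5, against a Day0 mean of 7.28, so this trough leans on the 1 E18.5 array. The synthase Gys2 (0.72) and the phosphorylase Pygl (0.76) were not called, though Gys2 was at 1.13 and called without the second Day3 array.

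Part of amino acid breakdown fell after the day of birth. Of 43 such genes, those for urea synthesis included, 11 were lower, 10 of them peaks, and 5 were higher, with a median change of -0.35. Arg1, the arginase that releases urea, had 10.73 and 10.26 on the Day3 arrays, against 13.20 and 12.65 on the Day0 arrays and changed by -2.43 ± 0.19. Asl, which makes arginine, had 9.80 and 9.35 on the Day3 arrays, against 12.08 and 11.38 on the Day0 arrays. Cps1, the first enzyme of the cycle, had 11.94 and 11.52 on the Day3 arrays, against 13.44 and 12.89 on the Day0 arrays, a change of -1.43 ± 0.21 (adjusted p 0.000313). Arg1 had been at 10.74 at E17.5 and 12.14 at E18.5, against a Day0 mean of 12.93. Cps1 had been at 11.38 and 12.67, against 13.17, so both rose by less than 1 log2 unit from E18.5. Arg1, Asl and Cps1 were lower on both Day3 arrays than on either Day0 array, as was every gene called lower. Otc, the second enzyme of the cycle, ran the other way, with 10.23 and 9.71 on the Day3 arrays, against 7.18 and 6.56 on the Day0 arrays, a change of 3.10 ± 0.26 (adjusted p 8.95e-07). Otc had stood at 8.92 at E17.5 and 10.23 at E18.5, so its low value belonged to the Day0 pool alone among these stages. Of the breakdown enzymes, Aass (lysine) changed by -2.59 ± 0.31, Oat (ornithine) by -1.94 ± 0.22 and Ahcy (the methionine cycle) by -1.62 ± 0.20. Ahcy had already been at 11.40 at E18.5, against a Day0 mean of 11.96. Agxt2, a mitochondrial aminotransferase, was higher by 1.93 ± 0.17 after a smaller change of -0.60 (adjusted p 0.0167) into Day0.

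**Figure D3:**
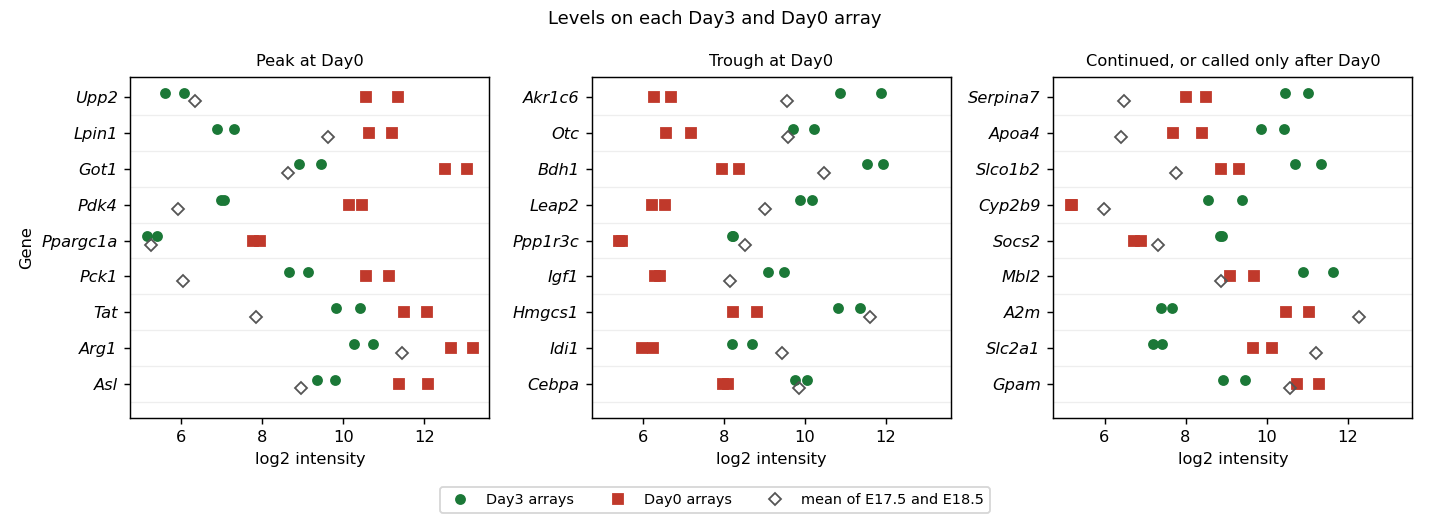
Green circles show the 2 Day3 arrays, red squares the 2 Day0 arrays and open diamonds the mean of E17.5 and E18.5, in log2 intensity, for 27 genes in 3 panels. In the left panel the Day0 arrays stand to the right of the Day3 arrays and in the middle panel to the left for every gene shown, and the diamonds mostly lie near the Day3 arrays. The right panel holds genes called in the same direction at both steps and genes called only after Day0.

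Genes of fat use moved in both directions. Of 35 genes of fatty acid oxidation and ketone bodies 4 were lower, all peaks, and 7 were higher, with a median change of 0.13. Acot1, a thioesterase that splits long-chain acyl-CoA, had 6.33 and 6.12 on the Day3 arrays, against 10.004 and 9.33 on the Day0 arrays, a change of -3.44 ± 0.22. Pnpla2, the lipase that opens stored triglyceride, changed by -2.39 ± 0.16, and Plin5, a coat protein of lipid droplets, by -1.74 ± 0.17. G0s2, a protein inhibitor of that lipase, was higher by 2.18 ± 0.19, so the lipase and its inhibitor moved in opposite directions. Bdh1, which makes the ketone body 3-hydroxybutyrate, was a trough with 11.93 and 11.53 on the Day3 arrays, against 8.37 and 7.95 on the Day0 arrays, a change of 3.57 ± 0.22. Hadh, an enzyme of mitochondrial beta-oxidation, rose by 1.49 ± 0.25. Fgf21, a liver hormone induced by PPARalpha, had 7.36 and 6.79 on the Day3 arrays, against 5.10 and 5.28 on the Day0 arrays, and Vnn1, a pantetheinase, rose by 2.21 ± 0.20, both without a call in the step into Day0. Cpt1a, which controls the entry of fatty acids into mitochondria, changed by -0.44 ± 0.23 and was not called. Acot1, Pdk4, Fgf21 and Vnn1 are all known PPARalpha targets, and the first 2 fell while the others rose. Plin5 and G0s2 were chosen after their values were seen.

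Several genes of cholesterol synthesis were low on the day of birth and rose by Day3, not all of them back to their level before birth. Of 20 genes 8 were higher at Day3, all 8 of them troughs, and 0 were lower, with a median change of 0.64 beside -0.0073 over all genes. At an unadjusted p under 0.05 in limma, 11 were higher and 3 lower. Hmgcs1, which makes the substrate of the rate-limiting step, had 11.37 and 10.80 on the Day3 arrays, against 8.81 and 8.23 on the Day0 arrays, a change of 2.57 ± 0.23 (adjusted p 1.84e-06). Idi1, the isopentenyl diphosphate isomerase, had 8.70 and 8.21 on the Day3 arrays, against 6.25 and 5.98 on the Day0 arrays. Sqle, squalene epoxidase, had 8.83 and 8.28 on the Day3 arrays, against 7.17 and 6.58 on the Day0 arrays, and Cyp51, which demethylates lanosterol, had 7.47 and 7.05 on the Day3 arrays, against 5.76 and 5.88 on the Day0 arrays. No Day3 array of these 4 genes was as low as a Day0 array, which held for every gene called higher. Before birth Hmgcs1 had stood at 11.61, Idi1 at 9.44 and Sqle at 9.66, all above their Day3 means of 11.09, 8.46 and 8.55. Fdft1, squalene synthase, and Msmo1, a sterol oxidase, rose by 1.78 ± 0.23 and 1.58 ± 0.21, but by 0.71 and 0.91 when all probe sets of the gene were averaged. At Day3 Sqle, Cyp51 and Msmo1 were still called lower than before birth, at -1.11 ± 0.23, -1.04 ± 0.18 and -1.03 ± 0.19. Insig1, which holds back the sterol sensor, was at 0.94 ± 0.28 and not called, but was called at 1.35 without the second Day3 array.

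The promoters of Hmgcs1 and Idi1 are shown because these genes gave the 2 largest changes of the pathway, and CCAAT boxes, bound by NF-Y, are a known feature of sterol-regulated promoters. Capitals mark CCAAT on either strand, in the same window of 250 bases before to 50 after the start (RefSeq, GRCm38.p6). Hmgcs1 lies at chr13:119690101-119690400 on the plus strand with 4 matches, and Idi1 at chr13:8885356-8885655 on the plus strand with 2 matches that begin 45 and 14 bases before the start.
Hmgcs1: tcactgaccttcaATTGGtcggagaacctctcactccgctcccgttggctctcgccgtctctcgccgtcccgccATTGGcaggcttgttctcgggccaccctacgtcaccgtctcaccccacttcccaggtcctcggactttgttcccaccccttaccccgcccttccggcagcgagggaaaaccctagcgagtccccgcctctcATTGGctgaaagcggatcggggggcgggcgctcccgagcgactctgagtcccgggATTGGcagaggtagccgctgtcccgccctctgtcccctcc
Idi1: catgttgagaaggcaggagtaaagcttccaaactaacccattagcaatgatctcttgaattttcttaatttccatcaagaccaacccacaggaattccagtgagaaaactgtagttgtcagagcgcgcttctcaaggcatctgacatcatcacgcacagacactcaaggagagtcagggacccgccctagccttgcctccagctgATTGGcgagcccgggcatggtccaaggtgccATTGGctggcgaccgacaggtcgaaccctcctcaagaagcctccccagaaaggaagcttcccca
CCAAT was found in 6070 of the 14453 genes with a promoter and in all 16 of the cholesterol genes with a promoter in the table, called or not. It was in 35 of 79 trough genes (44.3%) and 47 of 105 peak genes (44.8%).

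Several genes of fat synthesis were low on the day of birth as well. Of 26 genes 8 were higher and 2 lower at Day3, with a median change of 0.46. Srebf1, the master regulator of lipogenesis, had 9.40 and 8.85 on the Day3 arrays, against 7.76 and 7.52 on the Day0 arrays, a change of 1.49 ± 0.21. Fasn, fatty acid synthase, had 8.32 and 7.94 on the Day3 arrays, against 6.86 and 6.71 on the Day0 arrays. Both were troughs whose arrays did not overlap between the ages, as for every called gene. Pklr, the liver pyruvate kinase, rose by 1.83 ± 0.18, Mid1ip1, which activates acetyl-CoA carboxylase, by 1.91 ± 0.17, and the desaturase Fads1 by 2.12 ± 0.20. Mlxipl, which encodes the glucose-sensing factor ChREBP, was higher by 1.67 ± 0.14 after a smaller change of -0.80 (adjusted p 0.000663) into Day0. The 2 lower members were Lpin1, described above, and Gpam, which starts glycerolipid synthesis, with 9.47 and 8.92 on the Day3 arrays, against 11.30 and 10.76 on the Day0 arrays. Angptl8, a secreted protein induced by feeding and chosen after its values were seen, was higher by 2.97 ± 0.14. Leap2, a secreted antagonist of the ghrelin receptor, was a trough with 10.18 and 9.87 on the Day3 arrays, against 6.54 and 6.22 on the Day0 arrays, a change of 3.64 ± 0.16.

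**Figure D4:**
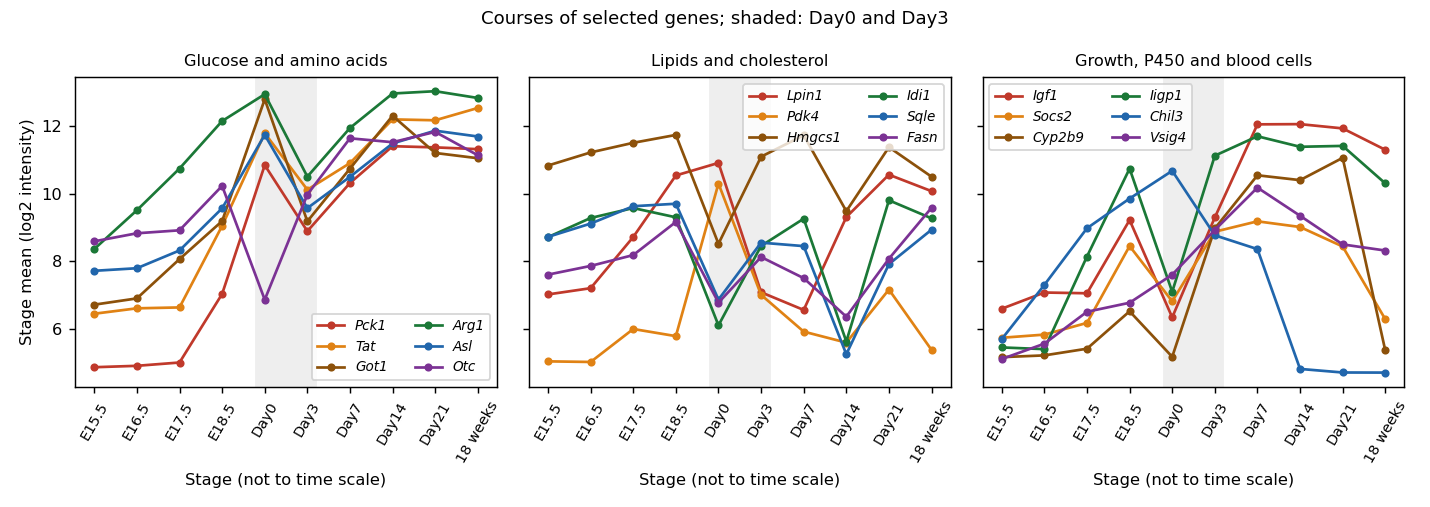
Stage means in log2 intensity are drawn from E15.5 to 18 weeks in stage order for 18 genes, with Day0 and Day3 shaded. Pck1, Tat, Got1, Arg1 and Asl are high at Day0, lower at Day3 and high again from Day14, whereas Otc, Hmgcs1, Idi1, Sqle, Igf1 and Iigp1 dip at Day0. The 3 sterol genes are low at Day14 as well. Stages with 1 array (E18.5, Day7 and Day14) carry no repeat.

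Enzymes of foreign compound and steroid handling supplied the 2 largest increases. Akr1c6, a hydroxysteroid dehydrogenase, had 11.88 and 10.86 on the Day3 arrays, against 6.68 and 6.28 on the Day0 arrays, a change of 4.89 ± 0.23 or 29.7-fold higher (adjusted p 1.80e-09), after 8.61 at E17.5 and 10.52 at E18.5. Akr1c14, of the same family, had 9.71 and 9.16 on the Day3 arrays, against 5.26 and 5.33 on the Day0 arrays, and Akr1c20 rose by 3.47 ± 0.18. All 3 were troughs. That of Akr1c20 leans on the 1 E18.5 array, with 5.65 at E17.5 and 7.27 at E18.5, against 4.88 at Day0. Genes of the Akr1c, Ugt2b and Cyp2 families are near copies of each other, and probes may be shared within a family. Hao1, the peroxisomal glycolate oxidase, had 11.23 and 10.58 on the Day3 arrays, against 7.35 and 6.89 on the Day0 arrays, and Hao2, a related oxidase, rose by 3.07 ± 0.18.

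Of 38 cytochrome P450 genes 12 were higher and 1 was lower at Day3, with a median change of 0.13, so that most members were not called. Cyp2b9 had 9.39 and 8.55 on the Day3 arrays, against 5.20 and 5.18 on the Day0 arrays, a change of 3.78 ± 0.19, and Cyp2c37 had 10.43 and 9.79 on the Day3 arrays, against 6.81 and 6.35 on the Day0 arrays. Neither was called in the step into Day0, where Cyp2b9 changed by -0.79 (adjusted p 0.00567). Cyp2f2 had 9.48 and 9.39 on the Day3 arrays, against 6.58 and 6.39 on the Day0 arrays and Cyp1a2, which oxidises aromatic amines, had 8.14 and 7.78 on the Day3 arrays, against 5.13 and 5.15 on the Day0 arrays, and both were troughs. These 2 troughs rest on the 1 E18.5 array. Cyp2f2 was at 6.67 at E17.5 and 9.73 at E18.5, and Cyp1a2 at 4.99 and 7.40. Cyp2b9 and Cyp1a2, like Sult2a8, Ugt2b1, Ugt2b35, Aox3, Akr1c14 and Akr1c20, had a Day0 mean under 6 on the log2 scale, near its lower end, so the size of their changes is uncertain to that extent. The same limit applies, among others, to Ppp1r3c, Cyp51, Fgf21, Fabp2, Igfals, Psmb9, Gbp2 and Gzmb. Among the genes that fell, Upp2, Ppargc1a, Slco4c1, Ppp1r3g, Wnt4, Ccn2 and Hba-x, with others, had a Day3 mean under 6. The lower member was Cyp3a13, a peak at -2.31 ± 0.17. Among 43 genes of conjugation and drug transport 14 were higher and 1 was lower, with a median of 0.33. The glucuronosyltransferases Ugt2b1, Ugt2b35 and Ugt2b36 rose by 3.27 ± 0.15, 3.19 ± 0.24 and 2.95 ± 0.22, the aldehyde oxidase Aox3 by 2.96 ± 0.19 and the sulfotransferase Sult2a8 by 3.94 ± 0.12.

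In the 26 genes of bile acid synthesis and transport, 5 were higher and 4 lower, with a median of 0.18. Cyp7a1, the rate-limiting enzyme, had 7.63 and 7.68 on the Day3 arrays, against 9.30 and 8.93 on the Day0 arrays, a change of -1.46 ± 0.24, and Cyp27a1, which starts the alternative route, had 8.26 and 7.63 on the Day3 arrays, against 10.10 and 9.26 on the Day0 arrays, a change of -1.73 ± 0.26. Abcb11, the export pump for bile salts, had 10.13 and 9.53 on the Day3 arrays, against 8.27 and 7.73 on the Day0 arrays, and Slco1b2, an uptake transporter, had 11.35 and 10.71 on the Day3 arrays, against 9.33 and 8.88 on the Day0 arrays. Synthesis genes did not all fall, since Akr1c6, which belongs to this list too, rose. The call was lost for Cyp7a1 with the second arrays alone (-1.25) and, with all probe sets averaged, for Cyp27a1 (-0.86) and Slco1b2 (0.98).

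Genes called in the same direction at both steps were few. Serpina7, the thyroxine-binding globulin, rose at both steps, with 11.02 and 10.47 on the Day3 arrays, against 8.50 and 8.003 on the Day0 arrays after 6.49 before birth, a change of 2.49 ± 0.25. Apoa4, an apolipoprotein of fat transport, had 10.44 and 9.87 on the Day3 arrays, against 8.42 and 7.70 on the Day0 arrays after 6.40. The other continued rises were Slco1b2, Aqp9, Pnpla7, Ang, Gramd1c and Cyp2e1, the last at 1.01 ± 0.23. Of the 8, 6 had a higher mean at Day0 than at E18.5 itself, and Cyp2e1 was at 11.80 at Day0 against 12.15 at E18.5 and 7.40 at E17.5. Slco1b2 was at 9.10, against 9.36 and 6.16, so these rises are relative to the mean of both stages. Without the second Day0 array Cyp2e1 was at 0.64, Aqp9 at 0.85, Ang at 0.76 and Pnpla7 at 0.77, all short of the threshold. The same 4 were at 0.77, 0.86, 0.76 and 0.79 without the first Day3 array. Of the 4 continued falls, A2m, a protease inhibitor of plasma, had 7.68 and 7.41 on the Day3 arrays, against 11.04 and 10.48 on the Day0 arrays after 12.28 before birth, a change of -3.22 ± 0.19. Slc2a1, the glucose transporter typical of fetal tissue, had 7.43 and 7.20 on the Day3 arrays, against 10.14 and 9.67 on the Day0 arrays after 11.21. Psat1, an enzyme of serine synthesis, changed by -1.10 ± 0.23 and lost its call without the first Day0 array (-0.80) or the second Day3 array (-0.89). Dlk1, a fetal growth regulator, changed by -1.21 ± 0.15, but by 0.09 without the sets whose names end in _x_at or _s_at. Aqp9, Pnpla7, Ang and Gramd1c are named to complete the class.

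Some genes of the growth hormone axis rose. Igf1, the growth factor that the liver secretes under growth hormone, had 9.49 and 9.10 on the Day3 arrays, against 6.41 and 6.29 on the Day0 arrays, a change of 2.94 ± 0.16 (limma, adjusted p 8.84e-09). Its level was 7.06 at E17.5, 9.22 at E18.5 and 12.04 at Day7. Ghr, the growth hormone receptor, had 9.67 and 9.16 on the Day3 arrays, against 7.70 and 7.34 on the Day0 arrays. Igfals, which stabilises IGF-1 in blood, rose by 1.66 ± 0.14 and Socs2, a feedback inhibitor of the receptor, by 2.05 ± 0.11. The mean over all probe sets of Socs2 changed by 0.84, short of the threshold. These 4 were the called members of 26, and 0 were lower (4 at an unadjusted p under 0.05 in limma), with a median of 0.02. Igf2, the fetal counterpart, was at 0.40 ± 0.19 and Igfbp1, a binding protein induced by fasting, at -0.39 ± 0.22, neither of them called. Among 41 liver transcription factors 3 were higher and 1 was lower. Cebpa, a regulator of metabolic genes, was a trough with 10.06 and 9.75 on the Day3 arrays, against 8.11 and 7.98 on the Day0 arrays, while its relative Cebpd was a peak.

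Of the 9 complement genes that rose 1 was a trough. Of 21 complement genes 9 were higher and 0 lower (2 at an unadjusted p under 0.05 in limma), with a median change of 0.61. Mbl2, a mannose-binding lectin, had 11.64 and 10.91 on the Day3 arrays, against 9.70 and 9.10 on the Day0 arrays, C8a, a part of the membrane attack complex, had 10.497 and 10.004 on the Day3 arrays, against 8.37 and 8.12 on the Day0 arrays, and C4bp, a brake on the pathway, rose by 1.82 ± 0.18. None of these 3 was called in the step into Day0, although C8a changed there by -0.62 (adjusted p 0.0424). Of 23 clotting genes 5 were higher and 1 was lower, among them F7 at 1.44 ± 0.18. Saa4, a constitutive serum amyloid protein, was a trough with 8.89 and 8.36 on the Day3 arrays, against 6.50 and 6.34 on the Day0 arrays. Of 38 plasma proteins and apolipoproteins 4 were higher and 0 lower (2 at an unadjusted p under 0.05 in limma). Afp, the fetal counterpart of albumin, changed by -0.0030 ± 0.19, and Alb by 0.01 ± 0.21, which is less than the spread of the repeats for both.

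The stress lists differed in how many genes were called. The share called was 17.65% for acute phase and 15.15% for the response to amino acid shortage and unfolded proteins. It was 13.64% for oxidative stress, 9.68% for hypoxia and 0% for heat shock, beside 2.91% of all genes. Of 34 acute phase genes 3 were higher and 3 lower, among them Saa4 and A2m. In 31 hypoxia genes 3 were lower and 0 higher (11 and 2 at an unadjusted p under 0.05 in limma), with a median of -0.24, and 2 of the 3 were Ddit4 and Slc2a1. In the response to amino acid shortage and unfolded proteins 4 of 33 were lower and 1 was higher, with Creld2, a chaperone of the endoplasmic reticulum, at -1.33 ± 0.18 and the transcription factor Atf5 at 2.17 ± 0.16. No heat shock gene of 17 was called (3 higher and 0 lower at an unadjusted p under 0.05 in limma). Of 22 genes against oxidative stress 1 was higher and 2 were lower, and Gclc, which limits glutathione synthesis, rose by 1.26 ± 0.18. In autophagy and lysosomes 1 of 28 was higher and 2 were lower. Clock genes had 1 higher and 1 lower of 20, and iron handling 0 of 22 called (7 at an unadjusted p under 0.05 in limma).

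**Figure D5:**
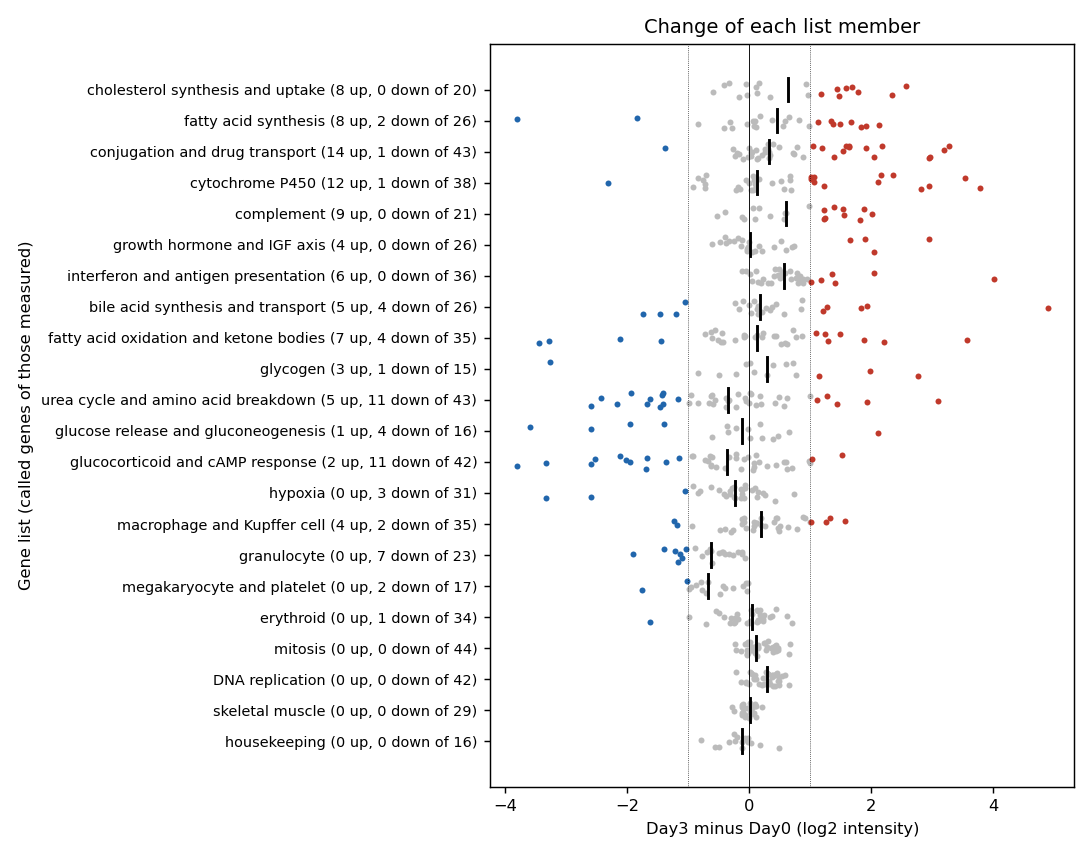
Each point is 1 gene of a list, placed by its change from Day0 to Day3 in log2 intensity, red where called higher, blue where called lower and gray otherwise, with the median as a black bar. Lists of cholesterol synthesis and complement lie to the right of 0 at 0.64 and 0.61, those of granulocytes and platelets to the left at -0.63 and -0.68. The lists of cell division hold no called gene.

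Several genes induced by interferon were higher. Of 36 such genes and genes of antigen presentation 6 were higher and 0 lower, at an unadjusted p under 0.05 in limma 25 and 0, and 34 had a change above 0, with a median of 0.57. Iigp1, a GTPase that attacks intracellular parasites, was a trough with 11.39 and 10.85 on the Day3 arrays, against 7.36 and 6.85 on the Day0 arrays, a change of 4.01 ± 0.21. Its level was 8.15 at E17.5 and 10.74 at E18.5, against a Day0 mean of 7.11, so the depth of this trough leans on the 1 E18.5 array. Igtp, of the same GTPase class, had 9.63 and 9.47 on the Day3 arrays, against 7.43 and 7.57 on the Day0 arrays. Psmb9, a subunit of the immunoproteasome, rose by 1.40 ± 0.14 and Gbp2, a guanylate-binding protein, by 1.35 ± 0.13.

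Blood cell genes were counted by lineage. All 23 granulocyte genes had a change below 0 and 7 were called lower, 0 higher (16 and 0 at an unadjusted p under 0.05 in limma), and their summed intensity was 32980 and 24307 on the Day3 arrays, against 55805 and 38347 on the Day0 arrays. Chil3, a chitinase-like protein of neutrophil precursors, had 9.09 and 8.45 on the Day3 arrays, against 11.05 and 10.29 on the Day0 arrays, and Mmp8, the neutrophil collagenase, changed by -1.40 ± 0.15, whereas S100a8 was at -0.40 and not called. Both Day3 sums were below both Day0 sums. All 17 platelet genes were also below 0, 2 of them called, with Vwf, the von Willebrand factor, at -1.75 ± 0.16. Vwf is in the endothelial list too. Of 35 macrophage genes 4 were higher and 2 lower. The scavenger receptor Marco had 9.81 and 9.18 on the Day3 arrays, against 8.15 and 7.70 on the Day0 arrays and Vsig4, a complement receptor of Kupffer cells, had 9.19 and 8.66 on the Day3 arrays, against 7.71 and 7.51 on the Day0 arrays, but Cd14, a receptor for bacterial lipid, changed by -1.23 ± 0.10. Of 20 T and NK cell genes 3 were higher, among them the granzymes Gzma at 1.98 ± 0.17 and Gzmb at 1.37 ± 0.13. Of 34 erythroid genes 1 was called, the embryonic globin Hba-x at -1.62 ± 0.15, a share of 2.94% beside 2.91% of all genes. The erythroid list summed to 42184 and 30996 on the Day3 arrays, against 43423 and 30299 on the Day0 arrays. The part of shifting cell numbers in the liver genes above was not tested.

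No gene of the cell division lists passed the threshold. Of 44 mitosis genes and 42 replication genes 0 were called, with median changes of 0.12 and 0.30. At an unadjusted p under 0.05 in limma, 6 and 9 were higher and 0 lower. Over all genes 3261 of 18194 had such a p, in either direction. Mki67, the usual proliferation marker, had 11.60 and 10.98 on the Day3 arrays, against 11.45 and 10.84 on the Day0 arrays, so the arrays of the ages overlapped. Of 22 genes that control the cell cycle 3 were lower, among them Ccng2, a cyclin linked to arrest, at -1.56 ± 0.22, and 0 higher (6 at an unadjusted p under 0.05 in limma). Of 28 fetal and imprinted growth genes 1 was called, Dlk1, a share of 3.57% beside 2.91% of all genes. Lists of B lymphocytes, stellate cells and bile ducts held 0 called genes as well (5, 12 and 2 at an unadjusted p under 0.05 in limma). The endothelial list held 2, both lower, with Vwf among them. The housekeeping list held 0 (4 at an unadjusted p under 0.05 in limma), with a median of -0.12. In 19 pancreas genes 2 were lower, with Ctrb1, a chymotrypsinogen, at 6.18 and 5.98 on the Day3 arrays, against 7.80 and 7.19 on the Day0 arrays, and the list summed to 1225 and 1284 on the Day3 arrays, against 1680 and 1614 on the Day0 arrays. In 23 gut and gallbladder genes 2 were higher and 2 lower, with Fabp2, a fatty acid carrier, at 8.81 and 8.25 on the Day3 arrays, against 5.31 and 5.11 on the Day0 arrays and Rbp2, a retinol carrier, at 6.33 and 6.19 on the Day3 arrays, against 8.38 and 8.09 on the Day0 arrays.

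The peaks differed in what came later. At Day21, 69 of the 141 peak genes were nearer to their Day0 level than to their Day3 level, and 52 in adult liver. Upp2 was at 7.44 at Day7, 10.39 at Day14, 11.51 at Day21 and 10.74 at 18 weeks, so its low level at Day3 did not last. Got1 stood at 10.73, 12.29, 11.20 and 11.04 over the same stages and Arg1 at 11.93, 12.95, 13.02 and 12.82. In contrast Wnt4 stood at 5.35, 5.30, 5.16 and 5.42, and Acot1 at 6.49, 5.98, 6.25 and 7.70, after 8.71 and 9.67 at Day0. For the troughs, 12 of 104 genes were nearer to their Day0 level than to their Day3 level at Day21, and 17 in adult liver. The sterol genes stood out at Day14, with Hmgcs1 at 9.48, Idi1 at 5.64 and Sqle at 5.27, on 1 array.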

How the data were processed

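The authors deposited 1 table of intensities on a linear scale for 25 arrays of biotin-labelled total RNA (Affymetrix, 45101 probe sets); the submitters' processing notes name RMA, with its scaling not given in the sources used here. Array means differed, so other scalings were tried. The log2 of each value was taken, and 34958 sets with 1 symbol gave 18194 genes, each represented by its brightest set. All 25 arrays entered 1 fit with a mean per stage (limma 3.58.1 in R 4.3.3, lmFit and eBayes, 11 residual degrees of freedom), and stages with 1 array are assumed to vary like the others. The number of arrays limits the precision. On simulated data of 18194 genes with 200 changed, 98% of changes of 1.5 and 100% of 2.5 log2 units were called, with 0 unchanged genes called. The simulated noise was independent for each gene and array. It held no brightness shift shared across genes and no spread of animals, so errors of these kinds were not tested.

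The 48 gene lists (1356 of 1498 entries measured) and all members were chosen with earlier results of these data known. Named genes are the 15 largest changes per direction, up to 8 called members and 4 others per list, the 15 strongest of each class of peak, trough and continued change, and some fixed ones; exceptions are marked. Promoter sequences are RefSeq's (GRCm38.p6), matched by symbol for 14453 genes. Alternatives covered scaling, probe set choice, dim genes, variance model, stages fitted, a replicate block, the level before birth, split Day0 arrays and each array left out; those with the first or second arrays alone were chosen after seeing the data.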

Additional observations from a re-analysis of the deposited data

How the results depend on the processing

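The 330 higher and 200 lower genes, 141 peaks and 104 troughs stayed within 1.5 times of these counts under other scalings, probe set choices, the dim gene filter, the variance model and the fit to 5 stages. The exceptions follow. With the adjusted p alone, 914 genes were higher and 758 lower, with 577 peaks, 335 troughs, 60 continued rises and 25 continued falls. Leaving out 1 array in turn gave 250 to 471 higher and 134 to 332 lower genes, 84 to 242 peaks, 89 to 133 troughs, 4 to 12 continued rises and 3 or 4 continued falls. Without the second Day0 array 332 genes were lower and 242 were peaks, without the first Day3 array 303 were lower, and without the first Day0 array 84 were peaks. The share of called genes that were higher was 75.6% without the first Day0 array, 46.1% without the second, 45.2% without the first Day3 array and 76.1% without the second, against 62.3% with all. With the first arrays of both ages alone, 380 genes were higher and 226 lower, and with the second arrays alone 283 and 179. The 8 continued rises became 4 in the fit to 5 stages, 15 with the first arrays alone, 5 with E18.5 alone as the level before birth and 29 with E17.5 alone, and 21 or 3 with the Day0 arrays split. The causes were not tested.

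The labels tie the replicate numbers to no shared batch. Deviations of same-numbered arrays correlated at 0.73 between Day0 and Day3 and at -0.57 to 0.73 over all 55 pairs of stages (median 0.40, over 0.1 in 38), so the numbers were not taken as pairs. With the replicate block 331 genes were higher and 200 lower, with 145 peaks, 99 troughs, 9 continued rises and 4 continued falls, and no call of a named gene changed.

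Changes near 0 turned sign in some alternatives. Afp was at 0.0008 with equal array medians, 0.16 with equal housekeeping level, 0.052 as the mean of its probe sets and 0.052 with the second arrays alone. Alb was at -0.0070 with the first arrays alone. With 1 array left out, Alb ranged from -0.27 to 0.29, Afp from -0.20 to 0.19 and Mki67 from -0.17 to 0.46. Dlk1 was at 0.087 without sets of the suffixes _x_at and _s_at.

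More than 1 probe set was available for 9012 genes. In 344 of them a set was called, and in 0 were sets called in opposite directions. Of the called genes 246 had more than 1 set, and in 135 of these another set was called the same way. The calls of the others rest on the brightest set alone.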

Other observations

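Zonation genes, which are expressed along the axis of the liver lobule, moved in both directions and did not follow 1 zone. Of 23 measured members 6 were higher and 5 lower at Day3 than at Day0, with a median change of 0.15. Among genes known from the periportal zone, Arg1 and Pck1 were lower, but Cyp2f2 was higher. Of the genes known from the pericentral zone, Rgn, a calcium-binding lactonase, rose by 1.83 ± 0.24 and Lect2, a secreted protein, by 3.37 ± 0.17, whereas Oat, also pericentral, was lower at -1.94 ± 0.22. Car3, a carbonic anhydrase, was a trough with 11.94 and 11.49 on the Day3 arrays, against 9.37 and 9.10 on the Day0 arrays.

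Immediate early genes were mixed as well, with 2 of 35 higher and 3 lower. Egr1, a growth-induced transcription factor, had 8.71 and 8.47 on the Day3 arrays, against 6.58 and 6.47 on the Day0 arrays, a change of 2.07 ± 0.12, and Ccn2, a secreted target of mechanical signals, had 5.86 and 5.65 on the Day3 arrays, against 8.51 and 8.17 on the Day0 arrays, a change of -2.58 ± 0.17. Fos changed by 0.62 ± 0.15 and was not called. Mitochondrial respiration had 2 of 59 members lower, Fh1 (fumarase) at -1.53 ± 0.23 and Idh3a (isocitrate dehydrogenase) at -1.47 ± 0.19, both peaks, and 0 higher (1 at an unadjusted p under 0.05 in limma). The called share of this list, 3.39%, was near the 2.91% of all genes. Over all its probe sets Idh3a was at -0.52 and not called. Alas1, the rate-limiting enzyme of heme synthesis in liver and a PGC-1alpha target, was a peak at -1.44 ± 0.17. Gpx3, a secreted glutathione peroxidase, was a peak too, at -2.47 ± 0.14. Of 39 ribosomal protein genes 37 had a change below 0, with a median of -0.23, and 0 were called (3 lower and 0 higher at an unadjusted p under 0.05 in limma).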
